A study of Homo sapiens with 12 samples.

Results

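The genes described here are 10 members of glycolysis: HK1, HK2, GPI, PFKP, ALDOA, ALDOC, TPI1, PGK1, ENO1 and LDHA. They were taken by name from a table of 34687 rows, 1 row per gene name, and all 10 had a row. The rule was the function of the encoded enzymes and used no measured value, although it was written with earlier results of these data known. RNA levels were read on Illumina HumanHT-12 BeadChips, arrays whose probes report the brightness of bound labelled RNA. The cells were HCT116, a human colon cancer line, and PANC1, a human pancreatic ductal carcinoma line. Each line received DMSO at 0.05%, which is the solvent and served as the control, ICG-001 at 10 uM, or C646 at 10 uM, and was collected after 12 or 96 h. ICG-001 binds the coactivator CBP and blocks its contact with β-catenin, and C646 inhibits the acetyltransferase activity of CBP and its relative p300. The 12 combinations of line, treatment and time are the groups, with 1 column of values each. Of these columns, 11 are the authors' means of 2 arrays, and that of PANC1 cells in ICG-001 at 12 h is a mean of 3. Cells of the 96 h groups were plated sparser, passaged and given fresh drug or DMSO daily, so time, density and repeated dosing cannot be told apart. With 1 mean per group there is no replicate check, and all differences below are sizes measured between columns, without a test or an error.

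Glycolysis splits glucose into pyruvate in the cytosol and yields ATP without oxygen. Hexokinases trap glucose in the cell, aldolases cut the sugar into its smaller sugar phosphates, and lactate dehydrogenase regenerates the electron carrier that lets the lower steps continue. Many cancer cells run the pathway fast even when oxygen is present. Hypoxia-inducible factors (HIF) raise many of these genes when oxygen falls, by binding sites with the core ACGTG or GCGTG. ALDOC is the aldolase best known from brain, whereas ALDOA is the widely expressed form.

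The stretches upstream of 4 of the genes are shown because the readout is RNA of these genes and because HIF targets were compared with the members. Which start made the RNA that was read is not known. LDHA has 2 listed starts, and the second, not shown, held no ACGTG. ALDOC, LDHA and PGK1 were chosen as holders of the ACGTG core with different arrangements, and ENO1 as a member without it. Each run is the 250 bases before the first listed RefSeq start of the gene on GRCh38.p14, written 5′ to 3′ along the gene's strand. Capitals mark ACGTG on either strand (CACGT is its reverse complement, and CACGTG holds both, overlapping). The other HIF core, GCGTG, is not marked. On either strand it occurs 2 times in the ENO1 run, 2 times in ALDOC, 1 time in PGK1 and 0 times in LDHA. The positions are chr17:28576896-28577145 on the minus strand for ALDOC, chr11:18394313-18394562 on the plus strand for LDHA, chrX:78103998-78104247 on the plus strand for PGK1 and chr1:8878687-8878936 on the minus strand for ENO1.
ALDOC: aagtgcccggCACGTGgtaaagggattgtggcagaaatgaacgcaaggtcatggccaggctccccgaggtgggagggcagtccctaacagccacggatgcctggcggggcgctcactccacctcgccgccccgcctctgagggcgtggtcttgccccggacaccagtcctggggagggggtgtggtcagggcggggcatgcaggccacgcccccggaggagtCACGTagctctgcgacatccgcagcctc
LDHA: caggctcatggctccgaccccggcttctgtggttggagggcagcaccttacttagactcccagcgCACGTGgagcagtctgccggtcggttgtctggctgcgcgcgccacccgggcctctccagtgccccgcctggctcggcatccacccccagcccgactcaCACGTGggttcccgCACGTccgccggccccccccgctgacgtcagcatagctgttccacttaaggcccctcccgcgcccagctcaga
PGK1: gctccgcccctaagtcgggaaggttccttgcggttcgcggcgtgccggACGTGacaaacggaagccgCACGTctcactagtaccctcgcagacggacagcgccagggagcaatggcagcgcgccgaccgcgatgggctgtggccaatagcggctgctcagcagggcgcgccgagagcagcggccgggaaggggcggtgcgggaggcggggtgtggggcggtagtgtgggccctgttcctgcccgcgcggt
ENO1: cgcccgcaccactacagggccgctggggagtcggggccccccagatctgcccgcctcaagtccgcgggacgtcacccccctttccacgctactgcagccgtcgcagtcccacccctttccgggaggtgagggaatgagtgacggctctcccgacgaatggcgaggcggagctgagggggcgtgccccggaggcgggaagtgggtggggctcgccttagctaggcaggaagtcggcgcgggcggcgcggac

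ALDOC held CACGTG from 240 to 235 bases before its start and CACGT from 28 to 24 bases before it. LDHA held CACGTG at 185 to 180 and at 87 to 82 bases before its start, with CACGT at 73 to 69. PGK1 held ACGTG at 202 to 198 and CACGT at 183 to 179 bases before its start. The 10 genes had 24 listed starts, and 11 of these (45.8%) held ACGTG on either strand, against 6501 of 35116 starts of all genes (18.5%). By gene, 8 of the 10 held it at 1 start or more (HK1 and ENO1 did not), against 21.7% of all 27305 genes. The full CACGTG stood before 1 start each of HK2, ALDOA, ALDOC and LDHA, 4 of 24 member starts (16.7%), against 6.34% of all starts. The other core, GCGTG, was present at 9 of the 24 member starts (37.5%), near the 32.2% of all starts. By gene it was in 8 of the 10 and in 36.2% of all genes. The members have more listed starts per gene than the table as a whole (24 for 10, against 35116 for 27305). For both cores this raises the members' counts by gene. These matches describe letters within 250 bases only.

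Signals are intensities on a linear scale, and since background was not subtracted, dim genes show compressed ratios. A detection limit was set for each column from the spread of its background, at 145.1 to 146.0 in HCT116 and 137.3 to 139.5 in PANC1, which 42.96% to 45.21% of rows passed. All 10 genes were above it in all 12 columns. The columns of each line share 1 distribution of values that the other line does not, so levels are compared within a line and lines through their ratios. The epithelial marker EPCAM (6553 to 9562 in HCT116) and CDX2 (353.6 to 451.5) were above the limit in 6 of 6 HCT116 columns, whereas CDX1, CDH17, LGALS4 and VIL1 were not above it in any of them. In PANC1, KRT19 (5006 to 11748), SOX9 and KRT7 were above the limit in 6 of 6 columns and CFTR in 0. CDKN2A, which is deleted in PANC1, was under the limit in all 6 PANC1 columns and at 209.05 to 303.5 in HCT116.

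Glucose is phosphorylated by hexokinases at the first step. For HK1, the form found in most tissues, the HCT116 signal was 849 at 12 h and 1175 at 96 h in DMSO, 586 and 720.1 in ICG-001, and 695 and 1084 in C646. In PANC1 it was 1056 and 1095 in DMSO, 1033 and 1112 in ICG-001, and 969 and 1071 in C646. Both ICG-001 columns of HCT116 lay lowest at their time, with log2 ratios to DMSO of -0.53 at 12 h and -0.71 at 96 h, while the PANC1 columns spanned only a 1.15-fold range. HK2 is the inducible hexokinase that many tumours express. In HCT116 its signal was 731 and 1237 in DMSO, 773 and 692 in ICG-001, and 702 and 986 in C646. PANC1 cells gave 222 and 251 in DMSO, 241 and 261 in ICG-001, and 193 and 203 in C646. HK2 at 96 h in HCT116 was therefore highest in DMSO and 1.79-fold lower in ICG-001 (log2 ratio -0.84), and the PANC1 signals were dim and spanned a 1.35-fold range.

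GPI converts glucose-6-phosphate to fructose-6-phosphate. Its HCT116 signal was 3573 and 5163 in DMSO, 1767 and 1625 in ICG-001, and 2358 and 5152 in C646. In PANC1 it was 2077 and 1932 in DMSO, 1549.6 and 1044 in ICG-001, and 1459 and 1453 in C646. ICG-001 columns were the lowest of HCT116 at each time, 2.02-fold under DMSO at 12 h and 3.18-fold at 96 h. In PANC1 the same drug gave a 1.34-fold lower signal at 12 h and a 1.85-fold lower signal at 96 h. C646 in HCT116 gave a 1.52-fold lower GPI signal at 12 h and a log2 ratio to DMSO of -0.0031 at 96 h. PFKP, the platelet-type subunit of phosphofructokinase, catalyses the committed step. Its signals were 3457 and 3589 in DMSO, 3756 and 3742 in ICG-001, and 3734 and 4423 in C646 in HCT116 cells. PANC1 cells gave 3272 and 3488 in DMSO, 3786 and 3132 in ICG-001, and 3677 and 3231 in C646. PFKP did not reach 1.5-fold in any comparison, and its 4 HCT116 ratios to DMSO were all above 0, from 0.06 to 0.30 on the log2 scale.

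Aldolases cleave fructose-1,6-bisphosphate. For ALDOA, the HCT116 signal was 2755 and 4067 in DMSO, 1654 and 2446 in ICG-001, and 2503 and 4167 in C646. PANC1 signals were 4013 and 4343 in DMSO, 3869 and 2960 in ICG-001, and 4129 and 3795 in C646. ALDOA was lower in ICG-001 in HCT116 by log2 ratios of -0.74 at 12 h and -0.73 at 96 h, and in PANC1 the ratios were -0.05 and -0.55. ALDOC had the widest range of the 10 genes in both lines. In HCT116 its signal was 1662 at 12 h and 4559 at 96 h in DMSO, 1058 and 1466 in ICG-001, and 2225 and 6110.4 in C646. In PANC1 the values were 208 and 561 in DMSO, 233 and 197 in ICG-001, and 297 and 424 in C646. The highest HCT116 column was thus C646 at 96 h, 5.78-fold over the lowest, ICG-001 at 12 h, and the highest PANC1 column was DMSO at 96 h, 2.85-fold over the lowest, ICG-001 at 96 h.

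**Figure D1:**
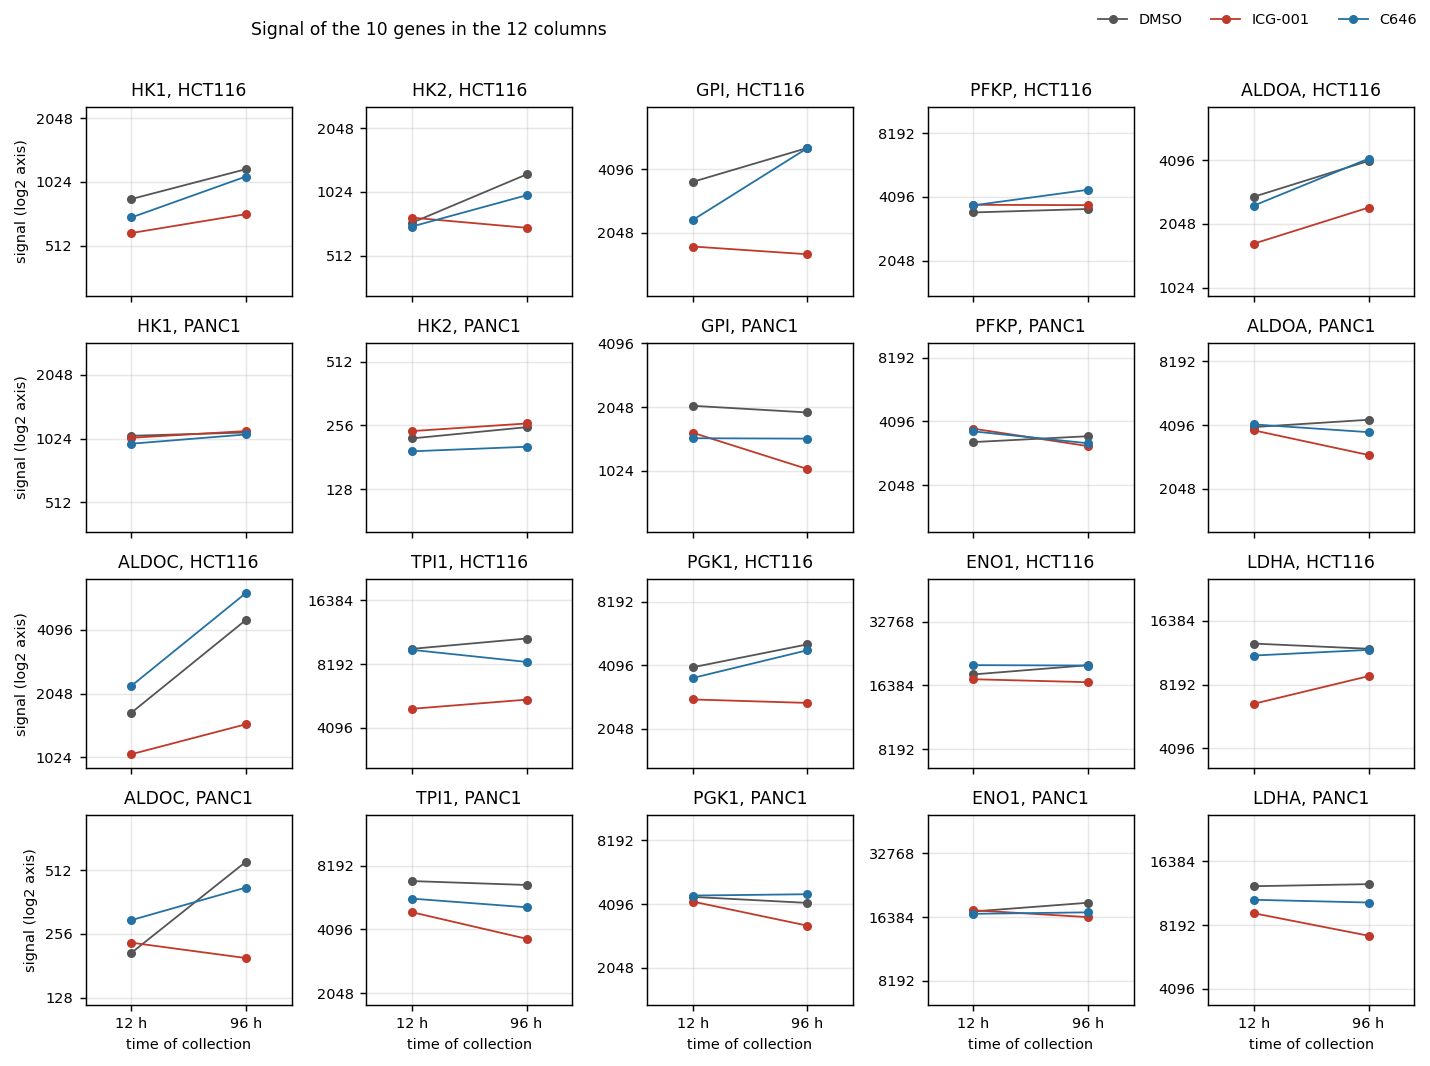
Signal intensity (log2 axis, every panel spanning the same fold) of the 10 genes at 12 and 96 h in HCT116 and PANC1 (named above each panel), with DMSO in grey, ICG-001 in red and C646 in blue. Each point is 1 column, the authors' mean of 2 or 3 arrays, so no error bar can be drawn. ALDOC in DMSO went from 1662 to 4559 in HCT116 and from 208 to 561 in PANC1, while in ICG-001 it ended at 1466 and 197.

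TPI1 interconverts the products of the aldolase step. Its HCT116 signals were 9679.8 and 10829.8 in DMSO, 5041 and 5569 in ICG-001, and 9573 and 8395 in C646. In PANC1 they were 6925 and 6637 in DMSO, 4935 and 3696 in ICG-001, and 5722 and 5208 in C646. TPI1 was lower in ICG-001 by log2 ratios of -0.94 and -0.96 in HCT116, and its ratios in PANC1 were -0.49 at 12 h and -0.84 at 96 h. PGK1 makes the first ATP of the pathway. HCT116 cells gave 4005 and 5136 in DMSO, 2822 and 2717 in ICG-001, and 3563 and 4818 in C646. PANC1 cells gave 4431 and 4151 in DMSO, 4211 and 3241 in ICG-001, and 4496 and 4561 in C646. The ICG-001 columns were the lowest at each time in both lines, and the difference passed 1.5-fold in HCT116 at 96 h (log2 ratio -0.92).

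ENO1 makes phosphoenolpyruvate, the last intermediate before pyruvate. Its signals were 18461.5 and 20409.9 in DMSO, 17518 and 16966 in ICG-001, and 20427 and 20345 in C646 in HCT116. The PANC1 values were 17404 and 19138 in DMSO, 17636 and 16371 in ICG-001, and 16966 and 17239.8 in C646. ENO1 spanned 1.204-fold in HCT116 and 1.17-fold in PANC1 and stood at or above percentile 99.654 of its columns, where the brightest row read 21805 to 25730, and whether such bright signals still scale with RNA was not tested. LDHA reduces pyruvate to lactate. In HCT116 it read 12798 and 12096 in DMSO, 6651 and 8979.95 in ICG-001, and 11239.5 and 11953 in C646. In PANC1 it read 12505 and 12790.3 in DMSO, 9314 and 7296 in ICG-001, and 10787 and 10471 in C646. The ICG-001 columns were again the lowest at each time in both lines, by 1.92-fold under DMSO in HCT116 at 12 h and 1.75-fold in PANC1 at 96 h.

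The comparison of ICG-001 with DMSO asks how glycolytic RNA stood under a drug directed at the contact of CBP with β-catenin. Whether that contact was blocked in these cells was not measured. In HCT116 at 12 h, 5 of 10 genes were at least 1.5-fold lower (GPI, ALDOA, ALDOC, TPI1 and LDHA) and 0 were higher. Rows entered a comparison when either column exceeded its limit, and 4.36% of them were at least 1.5-fold lower, or 9.46% in the top quartile of signal. The median log2 ratio of the 10 genes was -0.59, against 0.0022 over all 16243 rows tested. In bulk RNA, fewer cells of a kind and less RNA per cell cannot be told apart. At 96 h in HCT116, 7 of 10 genes were lower (HK1, HK2, GPI, ALDOA, ALDOC, TPI1 and PGK1), with a background of 5.34% over all rows tested and 11.2% in the top quartile, and the median was -0.79. LDHA, which was lower by 1.92-fold at 12 h, was 1.35-fold lower at 96 h. In PANC1 at 12 h none of the 10 passed 1.5-fold, and the median was -0.042. Only 58 of the 16402 rows tested were that much lower there (0.853% of the top quartile), and 2.29% were higher. TPI1, LDHA and GPI were numbers 161, 311 and 319 from the bottom. By 96 h, 4 of 10 were lower in PANC1 (GPI, ALDOC, TPI1 and LDHA), beside 3.73% of all rows tested and 8.17% of the top quartile, and the median was -0.46, or -0.36 without ALDOC. PFKP and ENO1 stayed within 1.5-fold in all 4 comparisons.

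ALDOC in ICG-001 at 96 h was 3.11-fold lower than DMSO in HCT116 (log2 ratio -1.64), number 23 from the bottom of 16359 rows tested, beside GPI at number 22. In PANC1 it was 2.85-fold lower (log2 ratio -1.51), number 10 from the bottom of 16540. At 12 h ALDOC was 1.57-fold lower in HCT116 and 1.12-fold higher in PANC1. These 96 h differences depend on the control column. Against DMSO at 12 h, ALDOC in the 96 h ICG-001 column had log2 ratios of only -0.18 in HCT116 and -0.08 in PANC1, and for the 10 genes in HCT116 the median became -0.21 with 2 genes at least 1.5-fold lower. In PANC1 ALDOC lies close to the limit, and normexp, a model of background and signal together, took its log2 ratio at 96 h from -1.51 to -2.16.

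**Figure D2:**
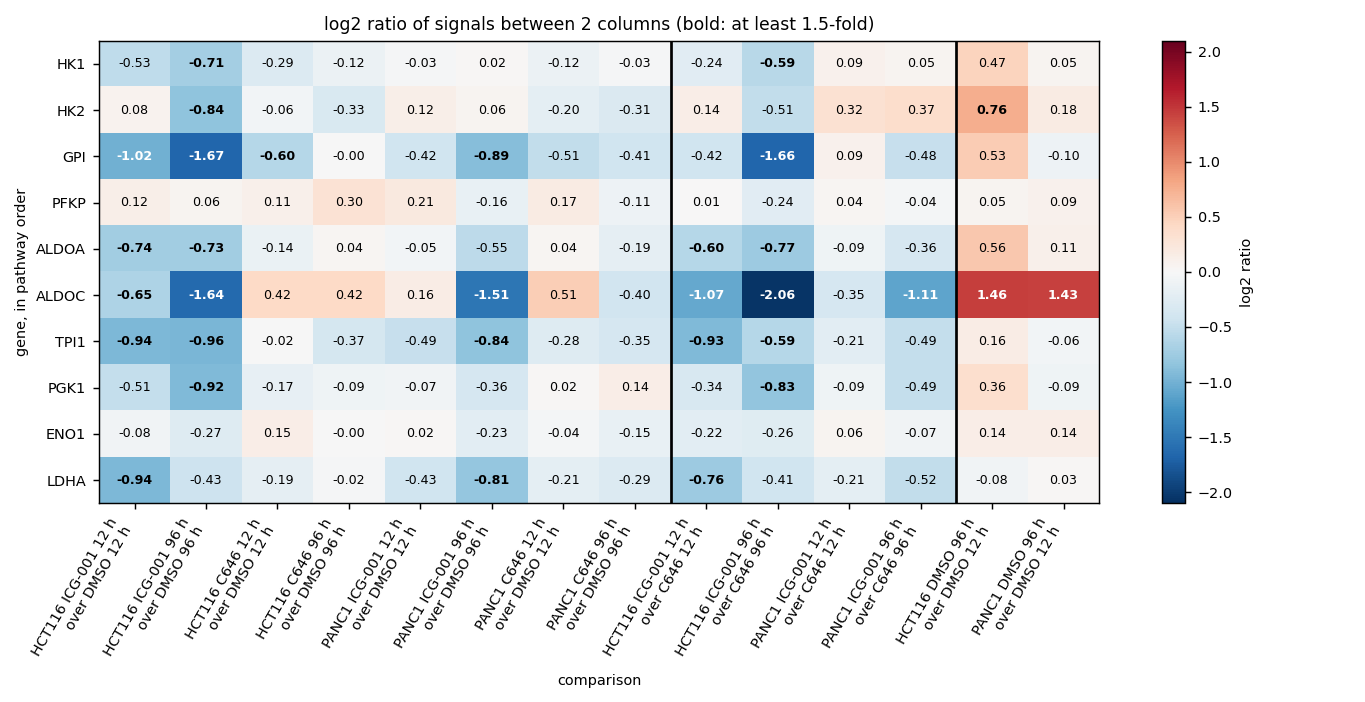
Log2 ratios of signals for the 10 genes in pathway order (rows) in 14 comparisons (columns), with blue for lower and red for higher in the first-named column and bold for at least 1.5-fold. Vertical lines part drug over DMSO, ICG-001 over C646, and DMSO at 96 h over 12 h. The ICG-001 columns of HCT116 hold 5 and 7 bold values, all lower, and PFKP and ENO1 hold none.

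C646, directed at the acetyltransferase activity of CBP and p300, was compared with the same DMSO columns. That activity was not measured. GPI in HCT116 at 12 h was the only member past 1.5-fold in any of the 4 comparisons. It was 1 of 10 where 1.61% of all rows tested were as much lower, or 3.52% of the top quartile. In HCT116 the median of the 10 genes was -0.099 at 12 h and -0.011 at 96 h, and in PANC1 it was -0.081 and -0.24. ALDOC was 1.34-fold higher than DMSO in HCT116 at both times (log2 ratio 0.42), 1.43-fold higher in PANC1 at 12 h and 1.32-fold lower in PANC1 at 96 h. HK1, HK2, GPI, TPI1 and LDHA were lower than DMSO in all 4 comparisons. The log2 ratios of TPI1 ran from -0.02 to -0.37 and did not reach 1.5-fold. Because ICG-001 and C646 share their DMSO columns, the size of their likeness was not taken from these ratios.

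Setting ICG-001 against C646 avoids the DMSO columns. In HCT116 at 12 h, 4 of 10 genes were at least 1.5-fold lower in ICG-001 (ALDOA, ALDOC, TPI1 and LDHA). Beside them stood 2.96% of all rows tested and 6.21% of the top quartile. At 96 h it was 6 of 10 (HK1, GPI, ALDOA, ALDOC, TPI1 and PGK1), beside 3.41% of all rows and 6.45% of the top quartile. The median was -0.59, and all 10 ratios were below 0. ALDOC was 4.17-fold lower in ICG-001 than in C646 in HCT116 at 96 h (log2 ratio -2.06), number 6 from the bottom of 16441 rows tested, and GPI was 3.17-fold lower. PANC1 gave 0 genes at 12 h, where 164 of 16812 rows tested were as much lower. At 96 h it gave 1 of 10, ALDOC at 2.15-fold lower, beside 3.67% of all rows tested. That count is near the 8.04% of the top quartile. HK2 was the member with the highest ratio in PANC1, 0.32 at 12 h and 0.37 at 96 h on the log2 scale.

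**Figure D3:**
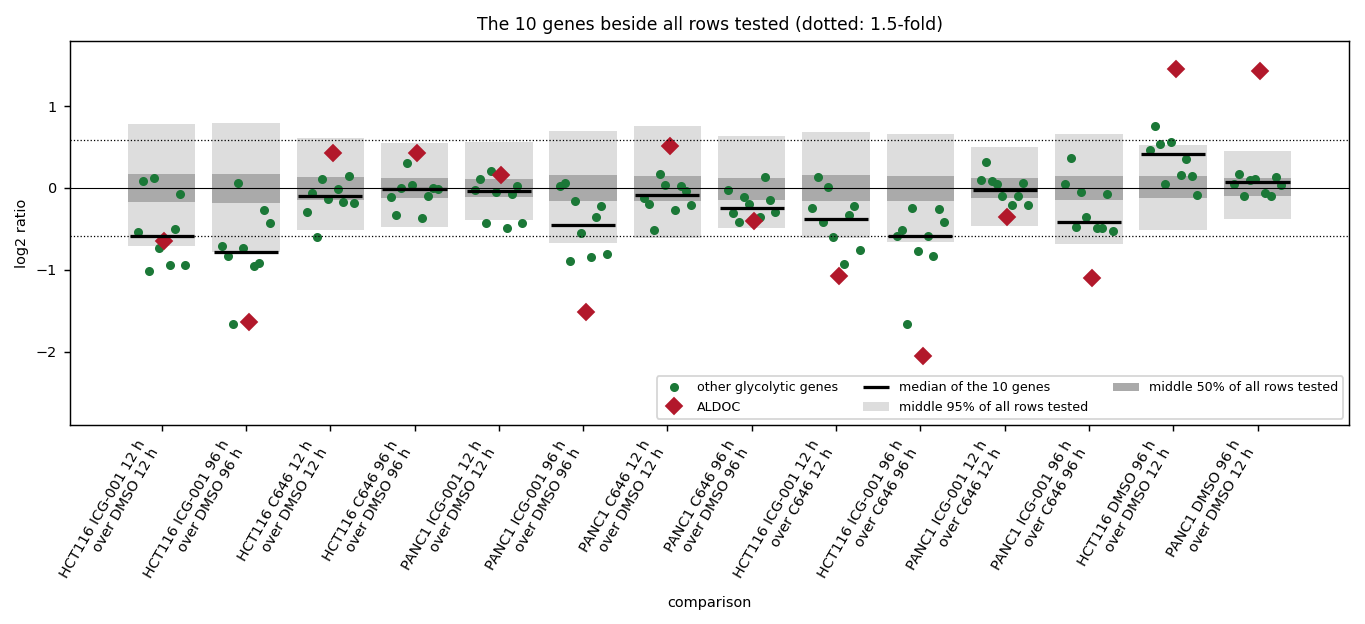
Log2 ratios of the 10 genes (green points, with ALDOC as a red diamond and the median as a black bar) beside the middle 50% (dark grey) and middle 95% (light grey) of all rows tested in each of 14 comparisons, with dotted lines at 1.5-fold. In HCT116 with ICG-001 the medians were -0.59 and -0.79, and ALDOC stood at 1.46 and 1.43 for DMSO at 96 h over 12 h, above the light band in both lines.

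Time in DMSO moved ALDOC more than any other member. In HCT116 it was 2.74-fold higher at 96 h than at 12 h (log2 ratio 1.46), number 4 from the top of 15917 rows tested, and in PANC1 it was 2.70-fold higher (log2 ratio 1.43), number 3 from the top of 15953. HK2 was the other member past 1.5-fold, at 1.69-fold higher in HCT116. So 2 of 10 genes were higher there, beside 1.63% of rows tested and 3.02% of the top quartile. In PANC1 it was 1 of 10, beside 1.02% of rows tested and 1.98% of the top quartile. HK1, GPI and ALDOA were 1.38-fold, 1.45-fold and 1.48-fold higher in HCT116 at 96 h, and the median of the 10 genes was 0.41 there and 0.072 in PANC1. The same ratio of 96 h to 12 h for ALDOC was 1.39-fold in ICG-001 and 2.75-fold in C646 in HCT116. In PANC1 ALDOC was 1.18-fold lower at 96 h in ICG-001 and 1.43-fold higher in C646. GPI in HCT116 also had unlike time ratios, at 1.45-fold higher in DMSO, 1.09-fold lower in ICG-001 and 2.19-fold higher in C646. Over the 10 genes the median time ratio in HCT116 was 0.41 in DMSO, 0.069 in ICG-001 and 0.46 in C646, and in PANC1 0.072, -0.31 and 0.0071. The differences between these time ratios were not tested, as each rests on 1 column per group.

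The lines differed in the sizes of their ratios to DMSO, and with ICG-001 at 12 h also in the spread of all rows tested. There the 2.5th percentile of all rows was -0.71 in HCT116 and -0.40 in PANC1. With ICG-001 at 12 h the ratio to DMSO was lower in HCT116 than in PANC1 for all 10 genes, with differences of the log2 ratios from -0.035 for HK2 to -0.81 for ALDOC. At 96 h the difference for ALDOC was -0.13, and for LDHA the order turned, with -0.43 in HCT116 and -0.81 in PANC1. For HK1, GPI and PGK1 the differences were -0.50, -0.59 and -0.43 at 12 h and -0.73, -0.78 and -0.56 at 96 h. For HK2 it was -0.90 at 96 h, with ratios of -0.84 in HCT116 and 0.058 in PANC1. With C646 at 96 h ALDOC stood 1.34-fold above DMSO in HCT116 and 1.32-fold below it in PANC1.

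The remaining genes of the pathway were read from lists by function. PKM, the pyruvate kinase that makes pyruvate and whose row carries the older name PKM2, was at least 1.5-fold lower than DMSO in 7 of 8 drug comparisons. Its log2 ratios in HCT116 were -0.98 and -0.99 for ICG-001 at 12 and 96 h and -0.71 and -0.90 for C646. In PANC1 PKM gave -0.65 and -0.80 for ICG-001 and -1.23 and -0.54 for C646. ENO2, the neuronal enolase, was lower in 3 comparisons, all in HCT116, with ratios of -1.26 and -0.79 for ICG-001 at 12 and 96 h and -0.59 for C646 at 12 h. HKDC1, a hexokinase-like enzyme, was higher in ICG-001, by log2 ratios of 1.22 and 1.30 in HCT116 and 0.69 in PANC1 at 12 h. Its signals lay near the limit in PANC1. In HCT116 they ran from 142.8 to 401.4, with 5 of 6 columns above the limit. GAPDH, the step between TPI1 and PGK1, did not pass 1.5-fold in the 8 drug comparisons, with log2 ratios from -0.32 to -0.0089. Of the 21 other isozymes and steps 13 were above the limit in HCT116, and for ICG-001 in HCT116 4 of 13 were at least 1.5-fold lower at 12 h and 6 of 13 at 96 h, with medians of -0.19 and -0.30, beside 4.36% and 5.34% of all rows tested. In the other direction 2 and 1 of the 13 were at least 1.5-fold higher, beside 5.05% and 5.37%.

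Glucose enters through SLC2A transporters. SLC2A1, the main glucose carrier of cultured cells, had log2 ratios to DMSO in HCT116 of 0.80 and 0.74 for ICG-001 at 12 and 96 h and 0.40 and 0.74 for C646. In PANC1 SLC2A1 gave 0.55 and -0.76 for ICG-001 and 0.26 and 0.07 for C646. Its direction in HCT116 with ICG-001 was thus opposite to that of the enzymes GPI, ALDOA and TPI1. SLC2A3, a high-affinity carrier, was lower in HCT116 at -1.93 for ICG-001 at 96 h and at -1.45 and -0.66 for C646, and stood at 0.40 for ICG-001 at 12 h. SLC2A8, a carrier mostly held inside cells, was at least 1.5-fold higher than DMSO in 6 of 8 comparisons, with ratios from 0.30 to 1.198. SLC16A3, the lactate exporter, had ratios from -0.13 to -1.35, lowest in PANC1 with ICG-001 at 96 h. Among regulators, PFKFB4, which makes an activator of phosphofructokinase, was lower with ICG-001 at -0.64 and -0.79 in HCT116 and at -1.32 in PANC1 at 96 h. PDP1, the phosphatase that activates pyruvate dehydrogenase, was lower in HCT116 at -1.07 for ICG-001 at 96 h and at -0.87 and -0.85 for C646. PGD, of the pentose phosphate branch, was lower with ICG-001 at -0.75 and -0.59 in HCT116 and at -0.68 in PANC1 at 96 h. SLC16A3 was chosen after its values were seen, as was GAPDH above.

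HIF targets that are not glycolytic enzymes were set beside the members. In HCT116 DMSO cells, 11 of 18 targets above the limit were at least 1.5-fold higher at 96 h than at 12 h, beside 1.63% of all rows tested, with a median of 0.65, and all 18 ratios were above 0. In PANC1 it was 3 of 15, beside 1.02%, with a median of 0.42. With ICG-001 in HCT116, 7 of 17 targets were at least 1.5-fold lower at 12 h and 8 of 18 at 96 h, with medians of -0.31 and -0.51, beside 4.36% and 5.34% of all rows tested, while 2 and 1 were higher. Against C646 at 96 h, 11 of 18 were lower in ICG-001 in HCT116, beside 3.41%, with a median of -0.81. That ratio also holds the shift of the C646 column, in which 5 of 18 targets were higher than DMSO and 0 lower, beside 1.97% of rows higher, with a median of 0.23. In PANC1 with ICG-001 at 12 h, 3 of 15 were higher and 0 lower, beside 2.29% of rows higher, with a median of 0.050. In PANC1 with ICG-001 at 96 h, 3 of 17 were lower and 3 higher, beside 3.73% and 4.03% of all rows tested, with a median of -0.082, while the 10 glycolytic genes had -0.46. ANKRD37, a HIF-induced gene, had log2 ratios to DMSO in HCT116 of -1.52 and -2.23 for ICG-001, -0.97 for C646 at 12 h and 0.95 for C646 at 96 h. P4HA1, a collagen-modifying enzyme, was lower with ICG-001 at -0.67 and -0.68 in HCT116 and at -0.76 in PANC1 at 96 h. VEGFA, the vessel growth factor, was higher with ICG-001 in both lines, by log2 ratios of 0.66 and 0.93 for HCT116 at 12 and 96 h and of 0.77 and 0.68 for PANC1. The VEGFA signals were dim, at 154.6 to 312.3 in HCT116 and 128.7 to 279.7 in PANC1, where 5 of 6 columns passed the limit. DDIT4, an inhibitor of mTOR signalling, was also higher with ICG-001, by 1.13 in HCT116 at 12 h and by 1.64 and 1.11 in PANC1. ANGPTL4, which restrains lipoprotein lipase, passed 1.5-fold in 4 of the 8 drug comparisons. It was lower in 1 of these, at -1.13 with ICG-001 in PANC1 at 96 h. In the others it was higher, among them 1.15 with C646 in HCT116 at 96 h. The list thus held members on both sides of DMSO.

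**Figure D4:**
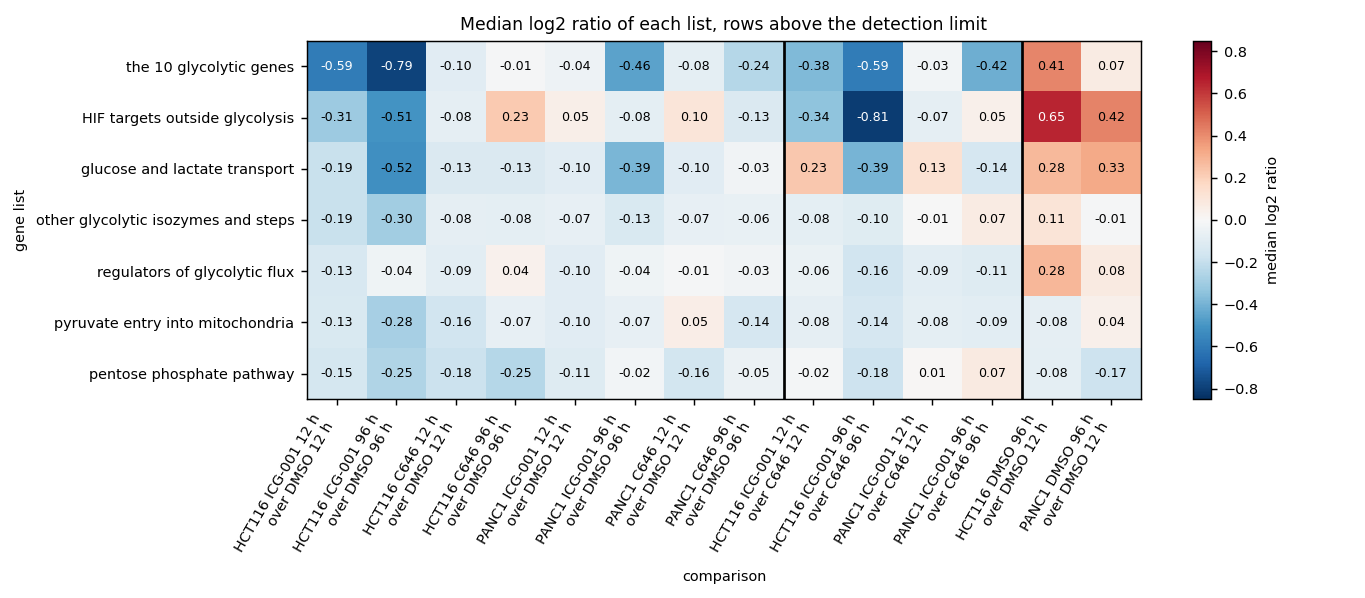
Median log2 ratio of each gene list (rows) in 14 comparisons (columns), over the genes that exceeded the detection limit in either column, with blue for lower and red for higher in the first-named column. The 10 glycolytic genes and the HIF targets held the lowest medians in HCT116 with ICG-001 at 12 h (-0.59 and -0.31). At 96 h there, glucose and lactate transport (-0.52) lay beside the HIF targets (-0.51). The HIF targets were highest for DMSO at 96 h over 12 h, at 0.65 and 0.42.

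Rows with a pattern like that of ALDOC were sought over the 12 columns, with log2 signals centred within each line. The 5 with the highest Pearson r of 1893 candidates were C4orf47 (0.93), C7orf68 (0.93), SUSD3 (0.93), SLC2A12 (0.93) and ANG (0.92). C4orf47 was above the limit in 2 of 6 PANC1 columns and SLC2A12 in 4 of 6 HCT116 columns, so part of their patterns lies in the background. C7orf68 is the older name of HILPDA, a lipid droplet protein, SLC2A12 encodes a sugar carrier and ANG encodes the ribonuclease angiogenin. By Spearman's rho C4orf47 alone stayed among the first 5, with SEMA3C, WDR54 and CNFN also among them. In HCT116 C7orf68 read 629.6 and 960.0 in DMSO, 589 and 647 in ICG-001, and 886 and 1596 in C646. Like ALDOC, it was lowest in ICG-001 at 12 h and highest in C646 at 96 h. Among the glycolytic genes themselves, ALDOA lay closest to ALDOC (r = 0.86, with 0.94 in HCT116 and 0.58 in PANC1), then ENO1 (0.80), PGK1 (0.77) and HK1 (0.77), and PFKP lay farthest (0.39). Within PANC1 the r of HK1 was 0.12 and that of HK2 was -0.16. These are descriptions over 12 columns, of which the 6 of a line share its cells and its distribution of values.

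**Figure D5:**
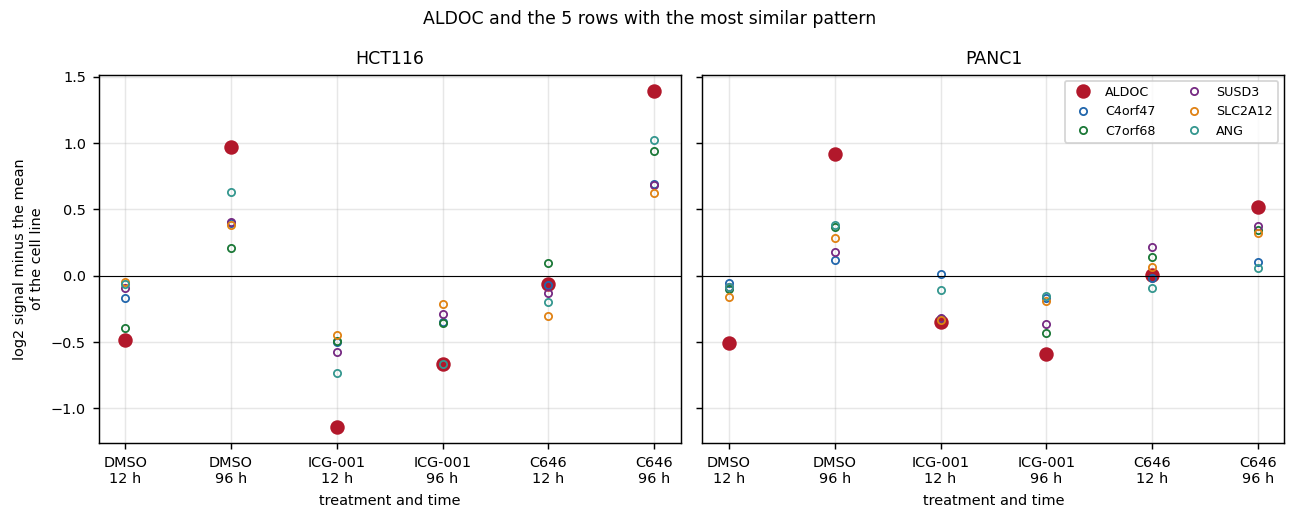
Log2 signal minus the mean of the cell line (vertical axis) in the 6 columns of HCT116 (left) and PANC1 (right) for ALDOC (filled red) and the 5 rows most like it (open circles). ALDOC stood at 0.97 and 1.39 in HCT116 in DMSO and C646 at 96 h and at -0.67 in ICG-001 at 96 h, and the other 5 rows had a narrower range.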

How the data were processed

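RNA of 12 groups of HCT116 and PANC1 cells was measured on HumanHT-12 arrays. The deposited table holds signal intensity for each gene name. By the methods of the study, arrays were quantile normalized in GenomeStudio with no subtraction of background, and the authors averaged the replicates. The submitters' processing notes name GenomeStudio, and the genome build is not given in the sources used here. Single-array values were not used here, so no error, test or p-value is given, and the number of arrays limits the precision. Groups came from the labels of the samples.

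Ratios of signals between columns were taken on the log2 scale with Python 3.11.15, numpy 2.4.6, pandas 2.3.3 and scipy 1.17.1, and figures used matplotlib 3.10.9. The detection limit was the peak of a column's log2 signals plus 2.33 SD of the background. Rows with either column over its limit were read at a fold of 1.5, and ratios of the 8 drug, 4 between-drug and 2 time comparisons were taken. Background that remains in the values shrinks the ratios of dim genes. Sorted log2 signals differed on average by 0.0037 to 0.0093 between columns of a line and by 0.063 to 0.066 between lines. The arithmetic was tested on simulated data with noise like that of rows under the limit only, which holds no variation between cultures.

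The members and gene lists were chosen with earlier results of these data known. All members are named, list genes are named when past 1.5-fold in 3 or more of the 8 drug comparisons, and 5 rows most like ALDOC by Pearson r among rows ranging over at least 1 log2 unit in a line. Older symbols were matched through the RefSeq table for 1 isozyme, 2 regulators, 2 genes of pyruvate entry and 2 HIF targets. Of 13 markers of other cell types, 4 passed the limit in at least 1 HCT116 column and 3 in PANC1. List genes outside the rule are mostly given by counts only. Alternatives were no filter, a limit at 5 SD, normexp with offset 16 (R 4.3.3, limma 3.58.1), centring, quantile normalization over 12 columns, folds of 1.2 and 2, and other DMSO columns.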

Additional observations from a re-analysis of the deposited data

How the results depend on the processing

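Leaving out each replicate could not be run, because each group is 1 column of means. No paired analysis was possible because each column is a mean over the numbered replicates. The median log2 ratios of the 10 genes in all 14 comparisons moved by no more than the background spread of the columns with no filter, with the limit at 5 SD, after centring and with quantile normalization over 12 columns. With normexp, the ICG-001 medians in HCT116 were -0.67 at 12 h and -0.87 at 96 h, and the other 12 stayed within that spread. The DMSO column mattered most. With that of the other time, the medians at 12 and 96 h were -0.93 and -0.21 for ICG-001 and -0.61 and 0.35 for C646 in HCT116, and -0.14 and -0.26 for ICG-001 and -0.20 and -0.0495 for C646 in PANC1. With the mean of both DMSO columns they were -0.84 and -0.47 for ICG-001 and -0.33 and 0.10 for C646 in HCT116, and -0.18 and -0.11 for C646 in PANC1. The cause was not tested. Without ALDOC, chosen after seeing the data, the median was -0.36 for ICG-001 in PANC1 at 96 h and 0.042 for ICG-001 over C646 in PANC1 at 12 h.

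Counts moved with the fold. At 1.2, 1.5 and 2-fold, the genes lower with ICG-001 were 7, 5 and 1 in HCT116 at 12 h, 9, 7 and 2 at 96 h, 3, 0 and 0 in PANC1 at 12 h and 6, 4 and 1 at 96 h. With C646 they were 2, 1 and 0 in HCT116 at 12 h, 2, 0 and 0 at 96 h, 2, 0 and 0 in PANC1 at 12 h and 5, 0 and 0 at 96 h, and at 1.2-fold 1, 2 and 1 genes were higher in HCT116 at 12 h, HCT116 at 96 h and PANC1 at 12 h, against 0. Lower in ICG-001 than in C646 were 6, 4 and 1 in HCT116 at 12 h, 8, 6 and 2 at 96 h, 1, 0 and 0 in PANC1 at 12 h and 6, 1 and 1 at 96 h, with 1 gene higher at 1.2-fold in each PANC1 comparison, against 0. Higher at 96 h in DMSO were 6, 2 and 1 in HCT116. With the DMSO column of the other time, lower genes went from 5 to 8 and from 7 to 2 for ICG-001 in HCT116, from 1 to 5 for C646 in HCT116 at 12 h, and from 0 to 1 at 12 h in PANC1 for each drug, and higher genes with C646 at 96 h from 0 to 2 in HCT116 and from 0 to 1 in PANC1. With the mean of both, ICG-001 in HCT116 at 96 h had 4 in place of 7 and C646 1 higher in place of 0. Normexp gave 1 gene higher in place of 0 in 2 PANC1 comparisons, and quantile normalization over 12 columns 1 lower in place of 0 for ICG-001 in PANC1 at 12 h. Under normexp the log2 ratio of ALDOC in PANC1 was 1.97 for time in DMSO and -1.66 for ICG-001 over C646 at 96 h.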

Other observations

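Genes of pyruvate entry into mitochondria and of the pentose phosphate pathway had medians between -0.28 and 0.053 in the 8 drug comparisons, a narrower range than the -0.79 to -0.011 of the 10 glycolytic genes.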
